A study of Mus musculus with 6 samples.

Results

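The genes of LDL uptake, cholesterol and fatty acid metabolism were examined on mouse expression arrays of endothelial progenitor cells (EPCs), some of which had been selected for taking up a modified LDL. The set holds 42 genes, chosen by name: scavenger and lipoprotein receptors, genes of sterol export, regulators and enzymes of cholesterol synthesis, enzymes of fatty acid synthesis, and genes that release or esterify sterols. All probes carrying a member's name were taken, which gave 55 of the 25697 probes on the arrays and 37 of the 42 genes. The expression of Hmgcs1, Mvk, Fdft1, Npc1 and Lipa was not analysed here.

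RNA came from 3 cultured lines with 2 arrays each, all on a single MouseRef-8 v2.0 chip. EPC was the primary line, taken by flow cytometry, with Flk-1 positive and CD45 negative among the markers of the sort, from lung of athymic nude (nu/nu) mice and harvested at passage 3 to 6. EPC_acLDL, at the same passages, consisted of cells that had been loaded with fluorescent acetylated LDL, sorted as positive and replated. EPC_Late was EPC_acLDL carried to high passage (16 to 20). The arrays give no unselected late line, so that selection and passage cannot be told apart in the comparison of EPC_Late with EPC. All 3 lines share the strain, the tissue, the first sort and a serum-containing endothelial medium. The 2 arrays of a line are called duplicates. The methods describe independent experiments, each in duplicate, and a legend describes several samples per line in duplicate, and neither matches 2 arrays per line. Whether the 2 arrays came from separate cultures is therefore not settled, and p-values measure only the spread between these arrays, which may be technical.

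Acetylated LDL enters cells through scavenger receptors and is broken down in lysosomes, which release its cholesterol. Cells sense sterol in the endoplasmic reticulum: when it is scarce, SCAP carries the SREBP transcription factors to the Golgi for activation and the genes of cholesterol synthesis and LDL uptake are switched on, and when it is plentiful, INSIG proteins hold SCAP back while the LXR nuclear receptors switch on export through ABCA1 and ABCG1. Uptake of acetylated LDL is a classic property of endothelial cells and macrophages, and cholesterol synthesis genes are a common readout of how much sterol such cells receive.

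The promoters of 3 of the 4 members above background on all 6 arrays are shown, because SREBP and its partner factors bind their targets in such sequence. Fdps, the other member, matched no promoter entry. The sequences are the 250 bases before the start of each gene, from RefSeq (GRCm38.p6), in the direction of transcription. Capitals mark matches, on either strand, to the core of a sterol regulatory element (ATCACNNCA), a CCAAT box (CCAAT, or ATTGG on the other strand) and a GC box (CCGCCC, or GGGCGG).
Cyp51, chr5:4104698-4104947, minus strand: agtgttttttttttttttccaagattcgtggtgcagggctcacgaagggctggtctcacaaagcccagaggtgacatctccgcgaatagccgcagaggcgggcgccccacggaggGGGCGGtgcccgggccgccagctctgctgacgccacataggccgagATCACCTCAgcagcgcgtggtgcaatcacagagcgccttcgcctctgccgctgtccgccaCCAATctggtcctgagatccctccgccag
Insig1, chr5:28071162-28071411, plus strand: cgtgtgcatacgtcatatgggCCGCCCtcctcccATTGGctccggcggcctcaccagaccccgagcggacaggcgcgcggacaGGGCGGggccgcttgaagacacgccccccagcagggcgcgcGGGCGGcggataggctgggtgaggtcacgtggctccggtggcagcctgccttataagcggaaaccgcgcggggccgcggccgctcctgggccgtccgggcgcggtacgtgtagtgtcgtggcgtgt
Acss2, chr2:155517793-155518042, plus strand: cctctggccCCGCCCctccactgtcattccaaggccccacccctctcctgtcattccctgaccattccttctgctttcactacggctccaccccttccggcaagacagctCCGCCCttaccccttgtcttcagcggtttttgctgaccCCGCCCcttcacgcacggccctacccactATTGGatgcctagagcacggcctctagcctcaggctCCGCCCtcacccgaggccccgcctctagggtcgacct
The Cyp51 window held a match to the sterol element core 89 bases before the start, where ATCACCTCA stands, with a CCAAT box at 29 and a GC box on the opposite strand at 135 bases. Insig1 held 1 CCAAT box and 3 GC boxes, and Acss2 held 1 CCAAT box and 4 GC boxes, and neither held the sterol core. Of the 42 members, 32 matched a promoter entry, 1 of them (Sc4mol, listed as Msmo1) through a synonym. These have 43 promoter entries, since a gene can have several starts. The sterol core was found in 3 of the 43 (6.98%), 1 each of Cyp51, Msmo1 and Srebf2, and in 2.30% of all 32851 promoters searched over the same length. The longer classical form of the sterol regulatory element was found in 0 of the 43, Cyp51 included, and in 63 of the 32851 (0.192%). CCAAT boxes were found in 23 of the 43 (53.5%) against 33.8% of all promoters, and GC boxes in 26 (60.5%) against 32.7%. Such matches are letters in a window, not sites known to be bound, and these arrays do not measure binding.

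Most members gave no signal. A probe is called above background here where its detection p-value, the fraction of negative controls that were as bright or brighter, was below 0.05. On single arrays 4 or 5 of the 55 member probes were above background (7.27% to 9.09%), against 8.47% to 9.20% of all probes. Of the member probes 48 (87.3%) were above background on no array, against 88.8% of all probes. Only probes for which both arrays of 1 or more lines exceeded background were compared: 4 of the 55 (7.27%) passed, where 9.08% of all probes did. These were probes of Cyp51, Insig1, Fdps and Acss2, 1 each, and each was above background on all 6 arrays. The other 51 lay between 230.2 and 479 in intensity, the linear brightness of a probe on an array as the authors deposited it.

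**Figure D1:**
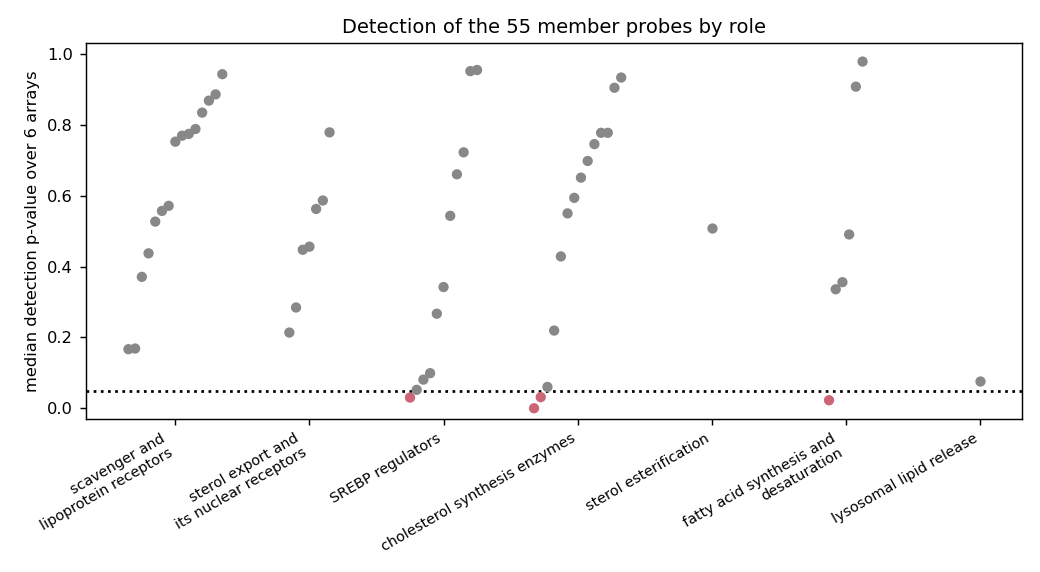
Median detection p-value over the 6 arrays (vertical axis, no unit) of each of the 55 member probes, as points ordered by value within the role of their gene (horizontal axis). Red points are the 4 probes compared between lines and the dotted line is the threshold of 0.05; the receptors and the export genes lie above it throughout.

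A probe at background cannot be read as a gene that was not expressed. Probes of genes that nearly every cell uses were looked up after the values had been seen. All probes of Gapdh, B2m, Hprt1, Ldha, Pgk1 and Vim were above background on no array, while 3 of 5 Actb probes and 2 of 3 Eef1a1 probes were so on all 6. Of the endothelial markers, Kdr, which encodes Flk-1, was above background on all 6 arrays and 1 of the 2 Flt4 probes on 5. The other 28 of 30 endothelial probes, with those of Pecam1, Cdh5, Tek, Tie1 and Vwf among them, were at background on every array, where 88.8% of all probes were. Few markers of the labelled cell type can therefore be read here. Probes of other cell types were above background on all 6 arrays as well: 1 each of the macrophage markers Csf1r (506 to 627) and Aif1 (470.4 to 563), of the smooth muscle markers Acta2 and Des, and of the fibroblast collagen Col1a2. Above background on no array were 18 of the 20 blood cell probes, 7 of the 10 smooth muscle probes and 12 of the 13 fibroblast probes. What keeps most of these probes dim was not tested, nor was whether the RNA and the chip behaved as the mouse design assumes, and every level and difference given here rests on that. In bulk RNA fewer cells of a type and less RNA per cell cannot be told apart.

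The member receptors were at background in all 3 lines, the selected one included. This held for all 15 probes of the scavenger receptors Msr1, Cd36, Olr1, Stab1, Stab2, Scarf1 and Scarb1, of Scarb2, a lysosomal membrane protein of the same family, and of the endocytic receptors Lrp1 and Vldlr. Their intensities ran from 254 to 439.8. The lowest detection p-value among them was 0.0702, for 1 of 5 Vldlr probes. Scarf1, a scavenger receptor of endothelial cells that binds acetylated LDL, ran from 254 to 287, with no detection p-value below 0.917. Msr1, the class A scavenger receptor of macrophages, ran from 263 to 344 with no detection p-value below 0.521. The arrays therefore give no measured difference between EPC_acLDL and the line not selected for uptake for any of these receptors. Of the receptors outside the set, Lrp8 and Lrp2 of the LDL receptor family had probes above background, on all 6 arrays for Lrp8 and on 5 for Lrp2.

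Sterol export was likewise below measurement. The 7 probes of Abca1 and Abcg1, which pump cholesterol out of cells, of Apoe, which carries it, and of the LXR receptors Nr1h2 and Nr1h3 ran from 252 to 409.99, and the lowest detection p-value was 0.137. Soat1, which esterifies cholesterol for storage, was at 349.7 or less with no detection p-value below 0.396. Npc2, which hands cholesterol out of the lysosome, came closer to the threshold: its intensity was between 371 and 424 and its lowest detection p-value was 0.0689.

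Among the regulators of SREBP, 1 of 11 probes was compared, that of Insig1. The intensity of Insig1 probe ILMN_1245272 was 439 and 487 in EPC, 459 and 494 in EPC_acLDL and 508 and 503 in EPC_Late. The ranges of EPC and EPC_acLDL overlapped, EPC_Late was the brightest, in deposited intensity, and all 6 values stood little above the dimmest signal above background on their arrays, which was 416 to 469. The other 3 Insig1 probes were at background on all arrays, with intensities of 241 to 389.5, so that the gene's value rests on a single dim probe. Scap, which escorts SREBP, lay just outside the rule for comparison: its intensity was 413 and 442 in EPC, 429 and 454 in EPC_acLDL and 479 and 428 in EPC_Late, and it was above background on 2 arrays. Srebf2, the SREBP of cholesterol genes, was above background on 1 array, with 454 and 402 in EPC, 397 and 401 in EPC_acLDL and 394 and 454 in EPC_Late. The lines overlapped in intensity for both genes, except that both EPC arrays of Srebf2 lay above both EPC_acLDL arrays, and these too overlapped after normalization. Both probes of Srebf1, the SREBP of fatty acid genes, and all 3 of Insig2 were at background throughout.

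In cholesterol synthesis 2 of 14 probes were compared, those of Cyp51 and Fdps. CYP51 is the lanosterol demethylase, an early step after the ring system of the sterol has been closed, and it was the only member that passed the test in any comparison. The intensity of Cyp51 probe ILMN_2688075 was 684 and 709.7 in EPC, 1121 and 1163 in EPC_acLDL and 825 and 877 in EPC_Late, and its detection p-value was 0 throughout. The 3 lines did not overlap: EPC was lowest, EPC_Late between and EPC_acLDL highest. FDPS makes farnesyl diphosphate, the branch point of the pathway, and the intensity of Fdps probe ILMN_1225730 was 468 and 447 in EPC, 429.5 and 503 in EPC_acLDL and 521 and 495 in EPC_Late. The EPC_acLDL arrays of Fdps spread more widely than any of the line means differed, EPC_Late lay above EPC without overlap, and after normalization all 3 lines overlapped. Idi1, which isomerizes the isoprenoid unit, lay just outside the rule: it was above background on 1 array, with 411 and 458 in EPC, 424 and 443 in EPC_acLDL and 427 and 443 in EPC_Late. Mvd, Sqle, Lss, Sc4mol, Nsdhl, Dhcr7 and Acat2, enzymes before and after these steps, had no probe above background on any array. The nearest of them was 1 of the 4 Nsdhl probes, with a lowest detection p-value of 0.118.

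In fatty acid synthesis 1 of 6 probes was compared, that of Acss2, which turns acetate into acetyl-CoA. The intensity of Acss2 probe ILMN_1231116 was 463 and 529 in EPC, 461 and 475 in EPC_acLDL and 512 and 524 in EPC_Late. EPC_acLDL was the dimmest and overlapped with EPC, and a second Acss2 probe (ILMN_2734181) was at background with 301 to 373. Acss2 is also on the study's own list of changed genes, which was drawn from these same arrays, so that its values are not independent evidence. That list gives it the opposite direction to these arrays as labelled in both comparisons in which it appears. Neither difference passed the threshold here, and both rest on 1 dim probe. Acly, which makes acetyl-CoA from citrate, Fasn, the fatty acid synthase, and the desaturases Scd1 and Scd2 were at background on every array.

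**Figure D2:**
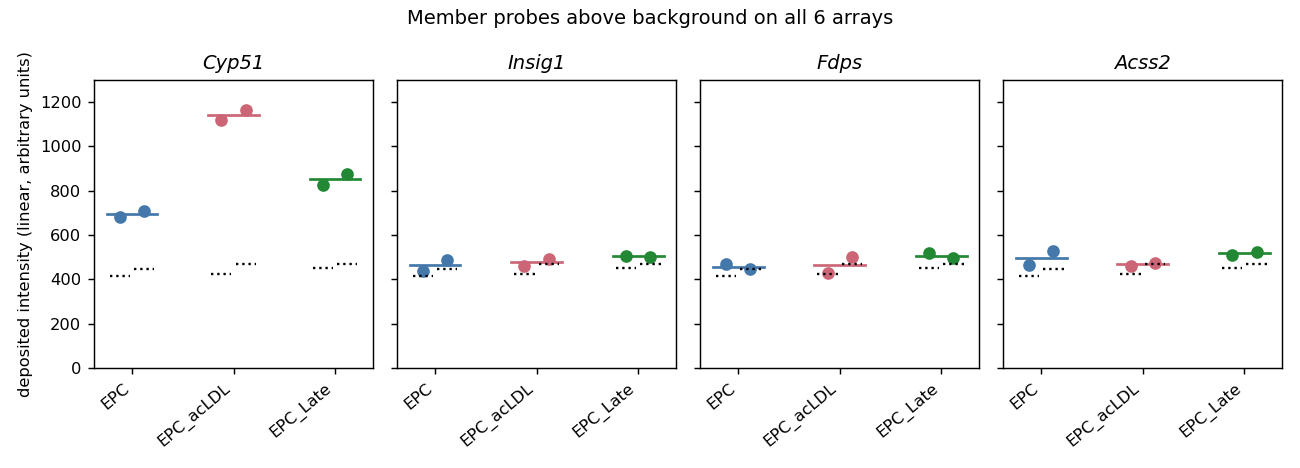
Deposited intensity (vertical axis, linear scale from 0, arbitrary units) of the 4 member probes compared, for each array (points) of the 3 lines, with the mean of a line as a bar; the dotted ticks are the lowest intensity above background on that array. Cyp51 stands between 684 and 1163 with the lines apart, and the other 3 probes lie just above the ticks.

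For the comparisons the intensities were corrected for background and quantile normalized with neqc of limma, and every difference below is on the resulting log2 scale. Directions follow the array labels. The study gives the opposite direction to these arrays as labelled for the member Acss2 and for Sox2, a stem cell factor. On these arrays Sox2 probe ILMN_2656102 was higher in EPC_acLDL and in EPC_Late than in EPC, with log2 differences of 2.01 and 2.67. Another Sox2 probe, ILMN_1248711, was at background on every array. No count over the rest of the study's list is given here. The same doubt applies to every direction given here. The first comparison asks what differs in cells selected for uptake of acetylated LDL. Between EPC_acLDL and EPC, 1 of the 4 member probes was called at an adjusted p-value of 0.05 in limma, against 3.30% of all 2333 probes compared (1.93% higher and 1.37% lower). Cyp51 was the call: after normalization it stood at 8.64 ± 0.04 (log2, SD, n = 2) in EPC and at 9.51 ± 0.03 (log2, SD, n = 2) in EPC_acLDL. It was thus 1.82-fold higher in EPC_acLDL, a log2 difference of 0.86 (SE 0.11, 95% interval 0.59 to 1.14, adjusted p = 0.015 from limma), which is rank 53 by size among the 2333 probes. Fdps, the other probe of cholesterol synthesis, had a log2 difference of -0.17, with an interval of -0.71 to 0.38 (adjusted p = 0.735 from limma). The call for Cyp51 depended on having both arrays of EPC and of EPC_acLDL. It was lost when any 1 of these was left out, with log2 differences of 0.84 to 0.90 in these fits. Calls over all probes fell in the same fits, so that the loss was not particular to Cyp51. Without background correction the log2 difference was 0.53 and still called (adjusted p = 0.00056 from limma).

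The other members did not pass between EPC_acLDL and EPC. Acss2 was the furthest from 0, with normalized log2 values of 7.32 and 7.66 in EPC and 7.06 and 6.86 in EPC_acLDL. These did not overlap, unlike the deposited intensities, and gave a log2 difference of -0.53 (SE 0.16, interval -0.90 to -0.15, adjusted p = 0.130 from limma). Insig1, with normalized log2 values of 7.07 and 7.31 in EPC and 7.05 and 7.04 in EPC_acLDL, lay apart by little on this scale. It had a log2 difference of -0.15 with an interval of -0.47 to 0.17, and the signs of both Insig1 and Fdps turned without normalization between arrays. That setting put the median difference of all probes at 0.25. Relative to this median Insig1 stood at -0.15 and Fdps at -0.18, against -0.16 and -0.17 as reported. No array of one line fell within the other for 3 of the 4 members, against 50.8% of all probes, and 2 of the 4 had an unadjusted p-value below 0.05 in limma, against 20.1%. The median difference of the 4 was -0.16 beside 0.01 over all probes, and the median size was 0.35 beside 0.19.

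Markers of other cell types were read beside these results. Of the 89 marker probes 78 were at background on every array, so that sums of their deposited intensities hold mostly background. The median intensity of an array over all probes was 311.0 and 342.4 in EPC, 304.6 and 345.2 in EPC_acLDL and 336.6 and 358.7 in EPC_Late. A higher sum in EPC_Late cannot be told apart from a brighter background of its arrays. For the 7 probes of adipocytes, which make and store lipid, the sums were 2312 and 2573 in EPC, 2347 and 2603 in EPC_acLDL and 2717 and 2723 in EPC_Late. EPC_Late was the brightest for this list, although Adipoq, Plin, Fabp4, Cidec and Retn were at background on every array. Of its other probes, that of Lep was above background on all 6, and that of Cfd on EPC_Late replicate 1 alone, at 506 against 331 to 428 on the EPC and EPC_acLDL arrays. The 9 epithelial probes likewise summed to 3294 and 3377 in EPC_Late, against 2916 to 3222 in the other lines, with Cdh1 alone above background. The endothelial, blood cell, fibroblast and smooth muscle sums overlapped between EPC_acLDL and each of the other lines. Those of the endothelial and blood cell probes also overlapped between EPC and EPC_Late. Between EPC and EPC_Late the fibroblast sums (3959 to 4353 and 4409 to 4732) and the smooth muscle sums (3548 to 3724 and 3777 to 4004) did not overlap. The only marker probe called in any comparison was that of Col1a2, with 431.5 and 456 in EPC, 498 and 508 in EPC_acLDL and 521 and 531 in EPC_Late, which was higher in EPC_Late than in EPC (log2 difference 0.43, adjusted p = 0.047 from limma). The part of such cells in the results was not tested.

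The second comparison sets the late line against the unselected early line. Between EPC_Late and EPC, limma called 0 of the 4 members at an adjusted p-value of 0.05, against 23.9% of all probes compared (10.9% higher and 13.0% lower). Cyp51 alone had an unadjusted p-value below 0.05 in limma (1 of the 4 members, against 34.5% of all probes). The test that the methods name, on the 4 arrays alone, called 0 of all 2333 probes after adjustment and so says nothing of the members. Its normalized value was 8.95 ± 0.08 (log2, SD, n = 2) in EPC_Late, a log2 difference to EPC of 0.30 (SE 0.11, interval 0.03 to 0.57, adjusted p = 0.109 from limma) or 1.23-fold. Its EPC and EPC_Late arrays lay apart, which held for no other member and for 58.0% of all probes. This value passed the threshold when fewer dim probes entered the fit, with an adjusted p = 0.019 from limma where a detection p-value below 0.01 was required on all 6 arrays, and without normalization between arrays (log2 difference 0.43, adjusted p = 0.038 from limma). Of all probes, 471 of 902 were called under that filter and 556 of 2333 without normalization. The differences of Insig1 (0.04, interval -0.28 to 0.37), Fdps (0.14, interval -0.40 to 0.69) and Acss2 (-0.13, interval -0.51 to 0.24) were within the spread of their arrays, and each changed sign without at least 1 of the arrays of these lines. The median difference of the 4 was 0.09 beside 0.01 over all probes, and the median size was 0.14 beside 0.25.

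The third comparison follows the selected line to high passage. Between EPC_Late and EPC_acLDL, 1 of the 4 members was called in limma, against 20.9% of all probes (9.34% higher and 11.5% lower). Cyp51 was 1.48-fold lower in EPC_Late, a log2 difference of -0.56 (SE 0.11, interval -0.83 to -0.29, adjusted p = 0.016 from limma), rank 481 by size among the 2333 probes. As in the first comparison the call needed all arrays of the 2 lines, and calls over all probes fell as well when 1 was left out. In the fits without 1 array the log2 difference of Cyp51 was -0.61 to -0.51. Without background correction the log2 difference was -0.36 and still called (adjusted p = 0.0014 from limma). The 3 comparisons share arrays, so that the higher value against EPC and the lower value in EPC_Late both rest on the same pair of EPC_acLDL arrays.

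The remaining members had positive differences between EPC_Late and EPC_acLDL, none past the threshold. Acss2 had a log2 difference of 0.40 (interval 0.02 to 0.77, adjusted p = 0.137 from limma), Fdps of 0.31 (interval -0.24 to 0.86) and Insig1 of 0.19 (interval -0.13 to 0.52). Cyp51 alone was negative. The arrays lay apart for 3 of the 4 members, against 58.6% of all probes, and 2 had an unadjusted p-value below 0.05 in limma, against 31.9%. The median difference of the 4 was 0.25 beside 0.00 over all probes, and the median size was 0.35 beside 0.23.

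**Figure D3:**
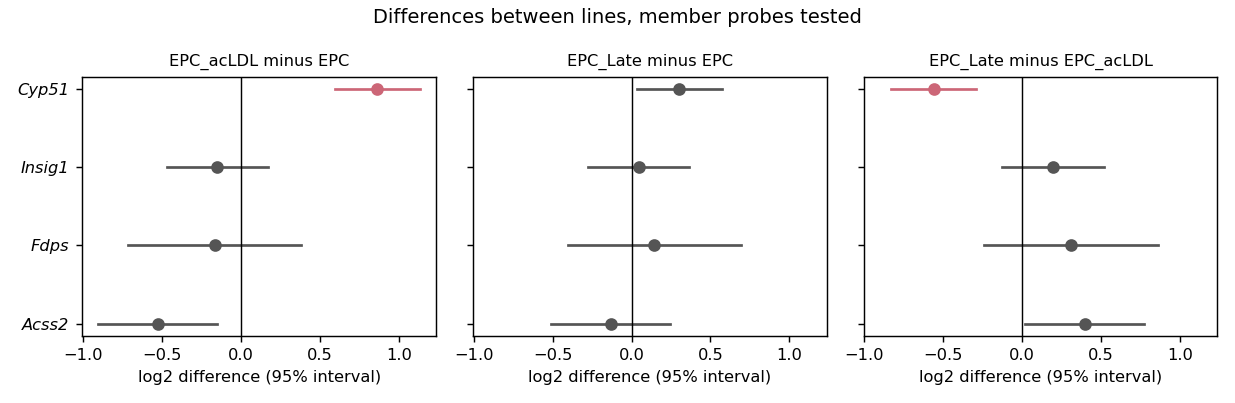
Log2 difference of normalized signal (horizontal axis) for the 4 member probes in the 3 comparisons (panels), with 95% intervals from limma as lines and called probes in red. Cyp51 is at 0.86, 0.30 and -0.56 in the panels from left to right, while the intervals of Insig1 and Fdps cross 0 in every panel.

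Other genes of the same pathways were taken from lists of 85 genes, of which 77 had 122 probes, and 14 probes of 11 genes could be compared. EPC_acLDL against EPC had 0 calls among the 14 in limma, where 3.30% of all probes were called, and 1 had an unadjusted p-value below 0.05, where 20.1% of all did. EPC_Late had 3 calls against EPC (1 higher and 2 lower), a share close to the 23.9% of all probes, and 6 against EPC_acLDL (3 higher and 3 lower), where 20.9% of all were called. At an unadjusted p-value below 0.05 these were 7 and 8 of the 14, against 34.5% and 31.9% of all probes. The adjusted test of the methods called 0 of all 2333 probes. By list, the 2 probes of other cholesterol synthesis genes (Tm7sf2 and Cyb5) were called in no comparison. Of the 4 probes of other fatty acid synthesis genes only that of Slc25a1 was called. All 3 compared probes of fatty acid handling and oxidation, for Etfa and Etfb, were called, and 2 of the 5 of uptake, endosome and lysosome genes, for Lrp8 and Lamp2.

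SLC25A1 carries citrate out of mitochondria, the source of acetyl-CoA for both fatty acid and cholesterol synthesis. The intensity of Slc25a1 probe ILMN_2919263 was 2610.2 and 2576 in EPC, 3839 and 3729 in EPC_acLDL and 4483 and 4534 in EPC_Late. The lines did not overlap and stood in that order. Another Slc25a1 probe, ILMN_2619846, was at background on every array, with 258 to 309. Slc25a1 was 1.77-fold higher in EPC_Late than in EPC (log2 difference 0.83, SE 0.11, adjusted p = 0.0025 from limma), and of the pathway calls it was the only one that passed in each of the 6 fits without 1 array. Against EPC_acLDL the log2 difference was 0.43 (adjusted p = 0.032 from limma), a call lost in each of these fits (log2 differences of 0.42 to 0.45). It was also lost with the 75th percentile shift (0.28, adjusted p = 0.184 from limma) and without normalization between arrays (0.27, adjusted p = 0.153 from limma). These settings put the median difference of all probes at -0.15 and -0.16. Between EPC_acLDL and EPC the log2 difference of Slc25a1 was 0.40 (adjusted p = 0.105 from limma), which passed under 7 of the other settings. By line mean, and with the arrays as labelled, Cyp51 was thus highest in EPC_acLDL and Slc25a1 in EPC_Late.

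ETFA and ETFB form the flavoprotein that takes electrons from fatty acid oxidation. The intensity of Etfa probe ILMN_2649966 was 29093 and 26439 in EPC, 32398 and 31902 in EPC_acLDL and 17113 and 18644 in EPC_Late. That of Etfa probe ILMN_2800655 was 1255 and 1082, 1329 and 1251, and 855 and 956 in the same order. Both of these probes were dimmest in EPC_Late without overlap. Their log2 differences were -0.49 and -0.70 against EPC (adjusted p = 0.021 and 0.012 from limma) and -0.46 and -0.67 against EPC_acLDL (adjusted p = 0.029 and 0.017 from limma). Etfb probe ILMN_3104414 went the other way, with 1242 and 1145 in EPC, 1234 and 1248 in EPC_acLDL and 1401 and 1459.7 in EPC_Late. It was 1.41-fold higher in EPC_Late than in EPC_acLDL (log2 difference 0.50, adjusted p = 0.026 from limma) and 0.34 above EPC, which did not pass (adjusted p = 0.087 from limma) but did under 6 of the 18 alternatives. Another Etfa probe, ILMN_1237075, was at background on every array and was not dimmest in EPC_Late. It had 353 and 378 in EPC, 330 and 384 in EPC_acLDL and 383 and 437 in EPC_Late. Another Etfb probe, ILMN_2627895, was at background as well, with 317 to 364.

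LRP8 is a lipoprotein receptor of the LDL receptor family and LAMP2 a protein of the lysosomal membrane. The intensity of Lrp8 probe ILMN_2662779 was 693 and 689 in EPC, 831 and 861 in EPC_acLDL and 677 and 654 in EPC_Late. EPC_acLDL was the brightest, and EPC_Late was 1.48-fold lower than EPC_acLDL (log2 difference -0.57, adjusted p = 0.022 from limma). Between EPC_acLDL and EPC its log2 difference was 0.26 (adjusted p = 0.31 from limma), and a second Lrp8 probe, ILMN_2751092, was called in no comparison. Lamp2 probe ILMN_3074259 had 2336 and 2461 in EPC, 2369 and 2337 in EPC_acLDL and 2667 and 3187 in EPC_Late. Lamp2 was 1.43-fold higher in EPC_Late than in EPC_acLDL (log2 difference 0.52, adjusted p = 0.038 from limma). Each of the calls of Etfa, Etfb, Lrp8 and Lamp2 was lost in some of the fits without 1 array. Those of Etfb and Lamp2 were also lost with the 75th percentile shift (log2 differences of 0.25 and 0.35, adjusted p = 0.269 and 0.139 from limma), which put the median of all probes at -0.15. The number of pathway calls between EPC_Late and EPC fell without EPC replicate 1 or EPC_Late replicate 1. Between EPC_Late and EPC_acLDL it fell without any 1 of the arrays of these lines. The number of calls over all probes fell in the same fits, so that the loss was not particular to the pathway genes.

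**Figure D4:**
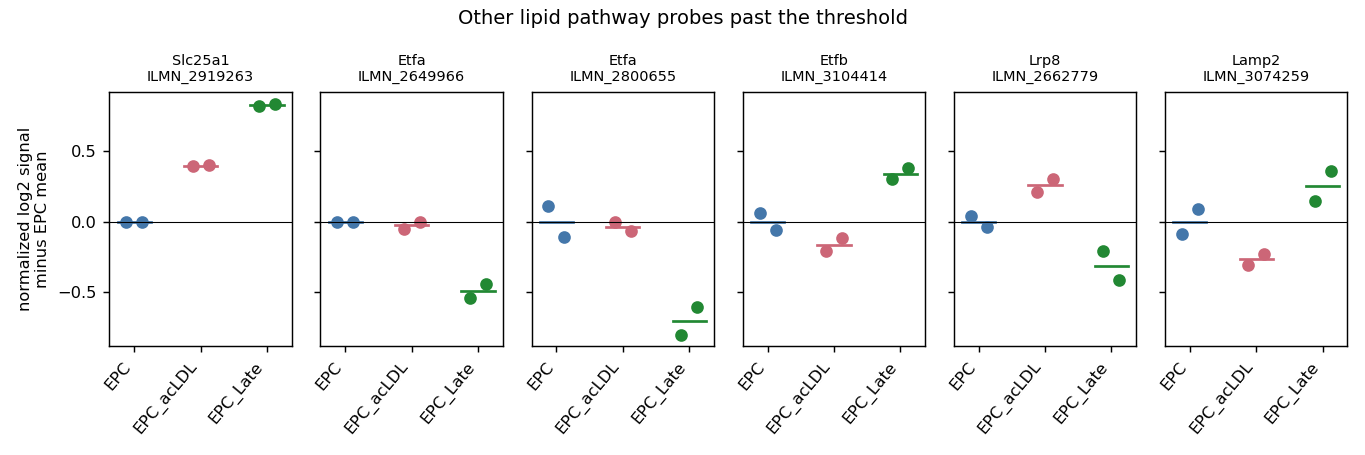
Normalized log2 signal minus the EPC mean (vertical axis) of the 6 other pathway probes called in at least 1 comparison, for each array (points) of the 3 lines, with the line mean as a bar. Both Etfa probes shown are lowest in EPC_Late, Slc25a1 stands at 0.40 in EPC_acLDL and 0.83 in EPC_Late, and Lrp8 is highest in EPC_acLDL.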

How the data were processed

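Total RNA of the 3 lines was labelled with biotin and hybridized to 6 Illumina bead arrays. The authors summarized the beads in BeadStudio with its local background correction and deposited, per probe and array, an intensity on a linear scale that was not normalized. Beside it they deposited a detection p-value. No genome build is named with these values, and 0 columns of per-sample values were left unused. The median intensity was 304.6 to 358.7 per array, and the number of arrays limits the precision.

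The 42 members, 85 other pathway genes and 70 marker genes are lists chosen with earlier results of these data known. Probes were matched by the gene name in the file. In R 4.3.3 with limma 3.58.1, neqc took the background from the detection p-values, added an offset of 16 and quantile normalized. Probes were fitted together if 1 or more lines had both arrays at a detection p-value below 0.05 (lmFit and eBayes, all 6 arrays, no covariates) with Benjamini-Hochberg adjustment over all of them, at a threshold of 0.05. The steps were tested on simulated intensities. Every member is named. Other pathway genes are counted by list and named in full where called in at least 1 comparison. The other settings tried were normexp with an offset of 50, uncorrected background, a 75th percentile shift, no normalization, no or a stricter detection filter, the replicate block, each array left out, limma-trend with robust variances, only 4 arrays, the methods' t-test and an added 2-fold criterion. One more detection filter was chosen after seeing the data.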

Additional observations from a re-analysis of the deposited data

How the results depend on the processing

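Of the 198 alternative values of the 4 members in the 3 comparisons, 174 kept their direction and side of the threshold, 10 lost the call, 4 gained one and 10 changed sign; for the other pathway probes named, these were 251, 51, 15 and 7 of 324. The number of members called between EPC_acLDL and EPC (1) was 0 with the methods' t-test after adjustment (adjusted p = 0.224 for Cyp51), which called 0 of all 2333 probes in each comparison and so says nothing of the members, 0 with the added 2-fold criterion and 0 to 1 with single arrays left out. Between EPC_Late and EPC (0) it was 1 without normalization between arrays, where 556 of all 2333 probes were called. It was 1 with a detection p-value below 0.01 on all 6 arrays (471 of all 902 probes called) and with the methods' t-test unadjusted (579 of 2333). It was 1 as well with both arrays of 1 or more lines at a detection p-value below 0.01 (chosen after seeing the data), where 582 of all 1230 probes were called. Between EPC_Late and EPC_acLDL (1) it was 0 with the adjusted t-test (adjusted p = 0.110 for Cyp51), 0 with the 2-fold criterion and 0 to 1 with single arrays left out. In these last fits the lone array of a line takes the spread of the others. All values that changed sign were uncalled, and some changed only under settings that moved the median of all probes, given below. Between EPC_acLDL and EPC, Insig1 was 0.019 with the 75th percentile shift and 0.10 without normalization, Fdps 0.072 without normalization and -0.42 to 0.087 with arrays left out, the Etfa probes 0.13 and 0.11 with the shift and 0.22 and 0.20 without normalization, the second of them -0.14 to 0.069 with arrays left out, and Etfb 0.075 without normalization. Between EPC_Late and EPC, leaving out arrays gave -0.075 to 0.16 for Insig1, -0.11 to 0.39 for Fdps and -0.31 to 0.040 for Acss2. The shift and the lack of normalization put the median difference of all probes at 0.16 and 0.25 in the first comparison (0.01 as reported) and at -0.15 and -0.16 in the third (0.00), and moved the share of higher calls from 58.4% to 82.6% and 91.6%, and from 44.8% to 26.1% and 24.5%. Over all settings other than the fits without 1 array, Cyp51 ran from 0.53 without background correction to 1.14 without normalization in the first comparison, and from -0.71 without normalization to -0.36 without background correction in the third. Relative to the shifted median Cyp51 was at 0.86 as reported and 0.89 under both settings in the first comparison, and at -0.56 and -0.55 in the third. In the first comparison Insig1 was likewise at -0.16 as reported and -0.15 under both settings, and Fdps at -0.17 and -0.18. Their sign changes under these settings thus went with the shift of all probes. After quantile normalization, deviations of same-numbered arrays correlated at 0.08, 0.02 and 0.03, so that the normalized values show little pairing by number. A shift shared by all probes of an array is removed by that step and could not appear here. In deposited intensity replicate 2 had the higher median in every line (311.0 and 342.4 in EPC, 304.6 and 345.2 in EPC_acLDL, 336.6 and 358.7 in EPC_Late). Whether the numbers pair the arrays is thus not settled. With the replicate block the members called were 1, 0 and 1, with an adjusted p = 0.033 and 0.025 from limma for Cyp51, and of the pathway calls named the block ended that of Slc25a1 between EPC_Late and EPC_acLDL (adjusted p = 0.054). Signal over background limits everything else: 51 of 55 member probes were not compared.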
